A study of Mus musculus with 15 samples.

Results

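Interferon-stimulated genes were followed across 5 treatments of a mouse dendritic cell line. The set held 50 genes listed by name as classical targets of interferon signalling, a choice made with earlier results of these data known. Of the 50, 48 had an array probe set of their own and 47 were bright enough to be tested, out of 12701 genes tested on the array. The exceptions were Isg15, measured only by a probe set shared with Gm9706, Ifi44, for which none was used here, and Mx2, which lay below the signal filter.

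Total RNA was measured on 15 arrays, 3 for each group. The cells were labelled as dendritic cells, in a line derived from the epidermis of newborn mice of the A/J strain. They received DNFB (a skin-sensitising contact allergen, 2,4-dinitrofluorobenzene in the usual use of that name), H2O2 (hydrogen peroxide), DPI (in the usual use of that name diphenyleneiodonium, which blocks NADPH oxidases and other flavoenzymes), DPI + DNFB, or were non-treated. The series' design text speaks of vehicle alone, a chemical allergen and an inhibitor of reactive oxygen species (ROS), so the non-treated cells may have received vehicle. Doses and times were not given, and all groups shared 1 cell line. The labels do not say whether replicate arrays were separate cultures, and the p-values therefore measure a spread that may be technical.

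Interferons are secreted alarm proteins. Type I interferons bind a receptor of IFNAR1 and IFNAR2 and, through the kinases JAK1 and TYK2, activate a transcription factor complex, with STAT2 and IRF9 in it, that binds the interferon-stimulated response element (ISRE) of target promoters. Interferon-gamma has a receptor of its own and acts on the gamma-activated site (GAS). The target genes include degraders and binders of viral RNA (OAS and IFIT families), GTPases that attack the compartments of intracellular pathogens (IRG and GBP families), the ISG15 conjugation system, sensors of foreign nucleic acid and the transcription factors IRF1, IRF7 and IRF9, which feed back on the pathway. Dendritic cells hold many of these genes at a basal level and raise them when they sense microbes or interferon.

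The elements were looked for in RefSeq promoter windows on mouse build GRCm38.p6, which run 250 bases before to 50 bases after each gene start. Windows were at hand for 39 of the 50 members. The ISRE core, searched as GAAA followed after any 2 bases by a second GAAA (on the other strand, TTTC and TTTC), was present in 16 of the 39 (41%), against 3.99% of all 27025 genes with a window. The palindromic GAS pattern TTCNNNGAA was present in 10 of the 39 (25.6%), against 9.55% of all genes. These letter matches describe the sequences and do not show binding. The stretches below are the 150 bases before the gene start, 5′ to 3′ in the direction of the gene, with ISRE core and GAS matches in capitals. Gbp2, Gbp3 and Irgm1 are GTPases that were lower with DNFB, Rsad2 and Ifit1 were higher with H2O2, Oas1a was higher with DPI, and Irf1 holds a GAS match with no ISRE core in this stretch.

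Gbp2, chr3:142620513-142620662, plus strand: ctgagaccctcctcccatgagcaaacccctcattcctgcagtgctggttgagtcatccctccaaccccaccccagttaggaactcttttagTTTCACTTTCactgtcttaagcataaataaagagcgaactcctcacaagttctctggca
Gbp3, chr3:142559894-142560043, plus strand: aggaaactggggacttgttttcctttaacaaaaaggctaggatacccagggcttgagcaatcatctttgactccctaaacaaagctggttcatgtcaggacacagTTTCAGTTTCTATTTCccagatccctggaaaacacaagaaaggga
Irgm1, chr11:48871421-48871570, minus strand: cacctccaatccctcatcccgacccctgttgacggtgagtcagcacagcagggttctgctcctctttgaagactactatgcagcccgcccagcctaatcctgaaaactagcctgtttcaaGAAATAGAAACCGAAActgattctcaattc
Rsad2, chr12:26456453-26456602, minus strand: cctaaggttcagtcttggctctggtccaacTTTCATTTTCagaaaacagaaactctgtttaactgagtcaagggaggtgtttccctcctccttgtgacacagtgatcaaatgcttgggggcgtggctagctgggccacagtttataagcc
Ifit1, chr19:34640739-34640888, plus strand: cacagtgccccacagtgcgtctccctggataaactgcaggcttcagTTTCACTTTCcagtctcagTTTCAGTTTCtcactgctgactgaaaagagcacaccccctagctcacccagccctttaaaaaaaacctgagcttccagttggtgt
Oas1a, chr5:120907526-120907675, minus strand: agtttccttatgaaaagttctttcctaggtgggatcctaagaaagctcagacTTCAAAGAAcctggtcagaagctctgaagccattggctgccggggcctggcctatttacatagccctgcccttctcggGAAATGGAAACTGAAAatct
Irf1, chr11:53769864-53770013, plus strand: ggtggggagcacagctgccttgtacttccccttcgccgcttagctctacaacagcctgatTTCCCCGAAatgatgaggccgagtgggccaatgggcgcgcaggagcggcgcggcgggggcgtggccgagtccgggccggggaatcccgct

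The 2 ISRE cores of Gbp3 overlap, as do those of Irgm1 and Oas1a, and those of Ifit1 stand apart. Oas1a also holds a GAS match farther upstream.

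H2-Aa and Cd74, of the antigen-presenting MHC class II machinery, lay above the 99th percentile of mean signal, and the leukocyte gene Ptprc and the integrin Itgax were also bright. Of 17 dendritic cell markers listed, 16 passed the signal filter and Ccr7 did not. Flt3, Cd207 and Zbtb46 were dimmer, at percentiles of 43.4, 56.8 and 64.1. Krt14, Krt1, Krt10 and Krt15 of keratinocytes and Cd3e, Cd3d and Cd3g of T cells lay below the signal filter. Of 10 keratinocyte markers 5 passed it (Cdh1, Epcam, Lor, Krt5 and Trp63), as did Cd8a of T cells and Kit and Tpsb2 of mast cells. With DNFB, 1 keratinocyte marker was higher and 1 lower than in non-treated cells; Krt5 averaged a signal of 259 against 67.7, and Cdh1 634 against 1236. Their part in the results below was not tested. The macrophage genes Csf1r and Cd14 were bright. Of 8 macrophage markers tested, 2 were higher and 3 lower with DNFB than in non-treated cells, where 24.4% of all genes were called. Their summed signal was 24040 to 26150 against 20280 to 24580. Within that sum Cd14 averaged 13890 with DNFB against 1306 in non-treated cells, and Csf1r 6749 against 16150. The part of these genes was not tested either. Replicate arrays correlated at 0.946 to 0.973. The 2% trimmed mean of the deposited signals was 250 on 6 arrays (every replicate 1, with DNFB replicate 3) and 500 on 9, and all arrays were rescaled to 500. Without that rescaling the spread within groups was larger, and 0 to 16 members passed in a comparison. The ratio of 3′ to 5′ beta-actin probe signal, a measure of RNA or cRNA integrity, was 2.07, 1.5 and 2.29 with DPI + DNFB and at most 1.53 on any other array.

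**Figure D1:**
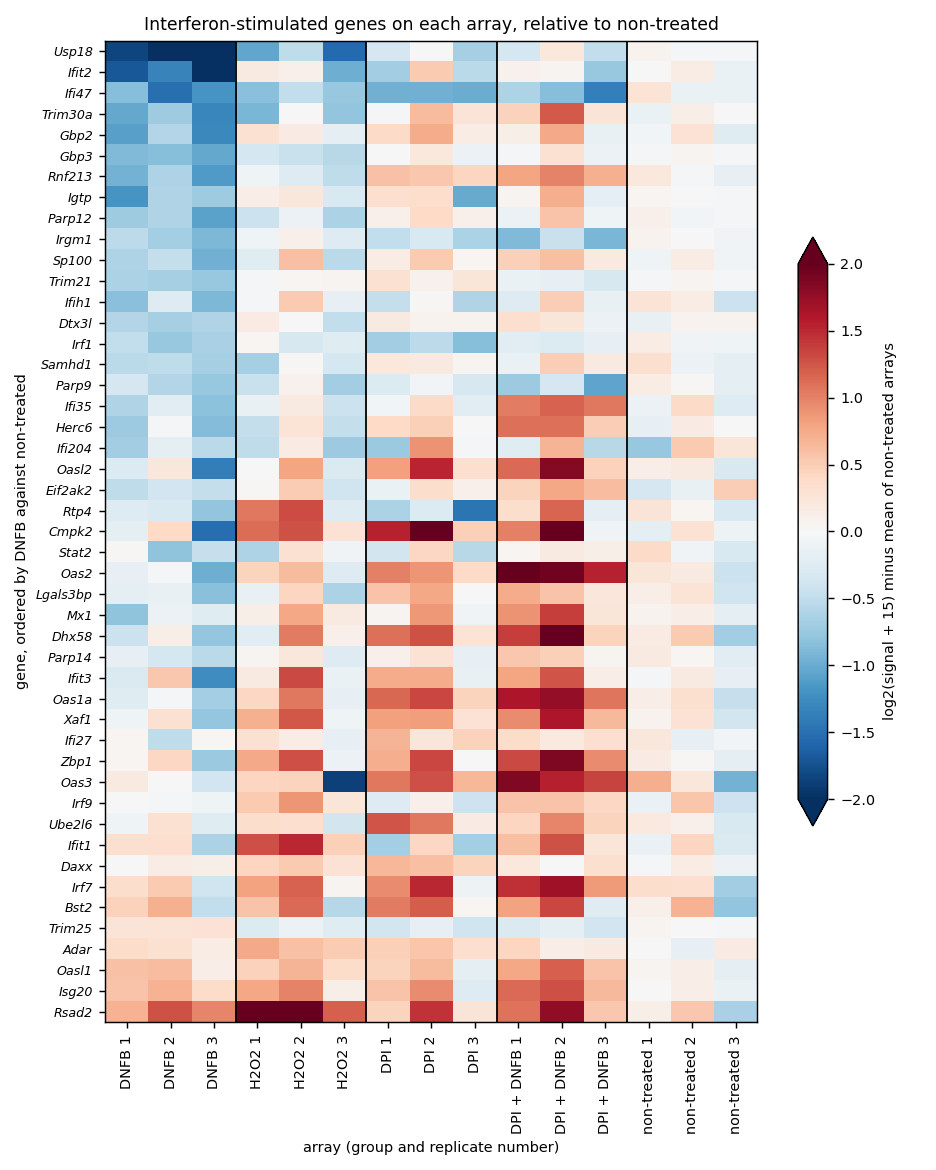
Interferon-stimulated genes on every array. Each row is 1 of the 47 tested members, ordered by the DNFB change, and each column 1 of the 15 arrays; the colour is log2(signal + 15) minus the mean of the 3 non-treated arrays, limited at 2 in either direction. The DNFB columns are lower (blue) in the upper rows, and most rows are higher (red) on the DPI + DNFB arrays.

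With DNFB, 18 of the 47 tested members were lower than in non-treated cells and none was higher, where 13.9% of all genes tested were lower and 10.5% higher (24.4% either way; limma, adjusted p below 0.05). The members' median log2 change was -0.43, against -0.055 over all genes, and 38 of the 47 lay below 0. Without DNFB replicate 3 the members' median was -0.28. The ISG15 protease Usp18, the RNA-binding Ifit2 and the immunity GTPases Ifi47, Igtp, Irgm1, Gbp2 and Gbp3 were among the 18. No OAS family gene passed in either direction.

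Usp18, which removes ISG15 from proteins and restrains the type I receptor, was the brightest of these genes. Its signal was 2335, 2097 and 1997 on the DNFB arrays, against 8822, 8183 and 8194 on the non-treated arrays. The groups were far apart, and the log2 change was -1.97 ± 0.209 (SE, n = 3 each; limma adjusted p = 8.45e-07). Ifit2, of the family that binds viral RNA, gave 151, 198 and 78.0 with DNFB, against 519, 584 and 476 in non-treated cells. All DNFB values were lower, with a log2 change of -1.86 ± 0.353 (limma adjusted p = 0.000512). Its relatives behaved otherwise: Ifit1 averaged 195 ± 70.4 with DNFB and 190 ± 55.8 in non-treated cells (SD, n = 3 each) and did not pass.

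All 5 tested GTPases of the IRG and GBP families were lower with DNFB. Ifi47, an IRG family member, gave 739, 464 and 590 with DNFB against 1638, 1229 and 1229 in non-treated cells. Its log2 change was -1.18 ± 0.191 (limma adjusted p = 1e-04). Gbp2, a guanylate-binding protein that coats pathogen vacuoles, gave 192, 278 and 165 with DNFB against 410, 522 and 357 in non-treated cells. Gbp3 gave 623, 636 and 564 against 1135, 1200 and 1128. Neither pair of groups overlapped, with log2 changes of -0.99 ± 0.245 for Gbp2 (limma adjusted p = 0.00513) and -0.91 ± 0.134 for Gbp3 (3.77e-05). Igtp and Irgm1 changed by -0.83 and -0.70. Mx1, the remaining GTPase tested and one that blocks orthomyxoviruses, averaged a signal of 163 with DNFB and 218 in non-treated cells and did not pass.

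Of 8 tested members of the ISG15 and ubiquitin system, 5 were lower with DNFB. Trim30a, a mouse TRIM protein known to dampen Toll-like receptor signalling, gave 697, 873 and 574 with DNFB against 1316, 1567 and 1447 in non-treated cells. The ranges were apart and the log2 change was -1.02 ± 0.242 (limma adjusted p = 0.00373). Rnf213, a giant ubiquitin ligase, changed by -0.90, the ligase Trim21, a cytosolic antibody receptor, by -0.68, and Dtx3l, the partner of Parp9, by -0.63. A dimmer probe set of Rnf213 gave 0.26 for this difference. Parp12, which transfers ADP-ribose, and Parp9, of the same family, changed by -0.80 and -0.56. The other members that were lower were the RNA sensor Ifih1 at -0.66, the transcription factor Irf1 at -0.63, the dNTP hydrolase Samhd1 at -0.57, the nuclear body protein Sp100 at -0.69 and Ifi35 at -0.55. The array values of the 2 groups overlapped for Ifih1 and Ifi35.

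Rsad2 (viperin), which makes a chain-terminating nucleotide, was the member farthest above 0 with DNFB. It gave 507, 765 and 626 with DNFB against 335, 458 and 191 in non-treated cells. The groups did not overlap, but the log2 difference of 0.98 ± 0.369 did not pass (limma adjusted p = 0.0595). The arrays with a trimmed mean of 250 held 1 array of each group but DNFB, which had 2, and those at 500 held 1 DNFB array and 2 of each other group. Fits within either set therefore borrow the spread of a lone array from the other groups, with 1 and 4 residual degrees of freedom, and their counts are no independent check. Within those at 250, 18 members were called, 17 of them lower, with a median of -0.64; within those at 500, 4 were called, all lower, with a median of -0.12.

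**Figure D2:**
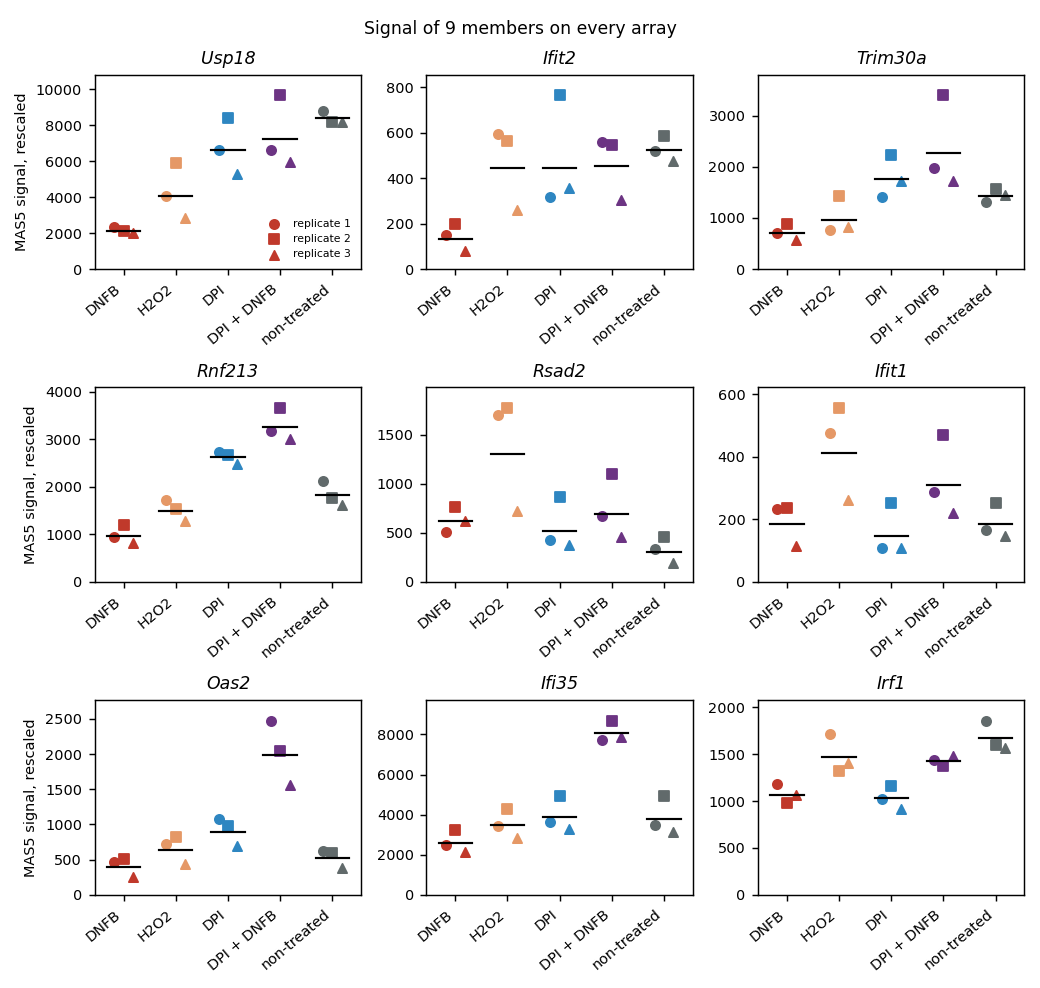
Signal of 9 members on every array. Each point is 1 array (MAS5 signal rescaled to a common trimmed mean, on a linear axis that starts at 0; marker shapes give the replicate number), groups run along the horizontal axis, and the bar is the geometric mean of the 3 arrays; Usp18 lies between 1997 and 2335 on the DNFB arrays and between 8183 and 8822 on the non-treated arrays.

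With H2O2, 40 of the 47 members did not pass, and 4 were higher and 3 lower than in non-treated cells (14.9% either way). Over all genes 10.9% were higher and 17.4% lower (28.3% either way). The median log2 change of the members was 0.04, against -0.065 over all genes; it was -0.09 without H2O2 replicate 2, -0.04 without non-treated replicate 3 and 0.23 without H2O2 replicate 3. The non-treated arrays were also the comparison for DNFB and DPI, so those 3 sets of changes are not independent.

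Rsad2 gave 1701, 1768 and 725 with H2O2 against 335, 458 and 191 in non-treated cells. Its log2 change was 2.02 ± 0.369 (limma adjusted p = 0.000318). Ifit1, which binds viral RNA lacking cap methylation, gave 476, 556 and 262 against 167, 253 and 148. All H2O2 values were higher in both genes, the lowest Ifit1 value by little, with a log2 change of 1.09 ± 0.366 for Ifit1 (limma adjusted p = 0.0299). The RNA-editing enzyme Adar gave 2220, 1983 and 1878 with H2O2 against 1329, 1168 and 1475, a log2 change of 0.61 ± 0.123 (limma adjusted p = 0.000793) that became 0.17 (adjusted p = 0.4) when its 3 probe sets were averaged. Daxx, a histone chaperone of nuclear bodies, changed by 0.42.

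Usp18 was lower with H2O2 as well, at 4061, 5916 and 2844 against 8822, 8183 and 8194 in non-treated cells. The log2 change was -1.04 ± 0.209 (limma adjusted p = 0.000847). Ifi47 gave 754, 954 and 794 with H2O2 against 1638, 1229 and 1229, and Gbp3 gave 904, 846 and 786 against 1135, 1200 and 1128. Both were lower on all H2O2 arrays, with log2 changes of -0.70 ± 0.191 for Ifi47 (limma adjusted p = 0.00909) and -0.44 ± 0.134 for Gbp3 (0.0171). Cyclic loess normalization gave 7 members higher and 3 lower. Without H2O2 replicate 3, 11 members were called, and without non-treated replicate 1, 4 were. Within the arrays with a trimmed mean of 250, 7 members were called, and within those at 500, 3.

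DNFB and H2O2 were also compared with each other. Against H2O2, DNFB gave 12 members lower and 1 higher, where 762 of the 12701 genes were lower and 8.75% higher (14.7% either way), and the members' median was -0.51 against 0.011 over all genes. Ifit2 was lowest, with the DNFB values above against 594, 563 and 261 with H2O2, a log2 change of -1.63 ± 0.353 (limma adjusted p = 0.00381). Rtp4, a chaperone of membrane receptors, gave 1002, 964 and 685 with DNFB against 2485, 2956 and 1002 with H2O2. These values touch, and the log2 change was -1.15 ± 0.356 (limma adjusted p = 0.0349). Gbp2 with H2O2 was 527, 475 and 373, well above its DNFB values, and the change was -1.08 ± 0.245 (limma adjusted p = 0.00534). Igtp gave 478, 715 and 665 with DNFB against 1213, 1291 and 890 with H2O2, and Ifih1 (MDA5), a sensor of long double-stranded RNA, gave 619, 926 and 593 against 1094, 1615 and 997. Neither overlapped, with log2 changes of -0.86 ± 0.282 for Igtp (limma adjusted p = 0.0473) and -0.78 ± 0.238 for Ifih1 (0.0321). Usp18, with the values above, changed by -0.93 ± 0.209 (limma adjusted p = 0.00499). Trim25, the ligase that modifies the RNA sensor RIG-I, was the 1 member that was higher with DNFB, at 4625, 4700 and 4745 against 3192, 3590 and 3299, a change of 0.48 ± 0.0977 (limma adjusted p = 0.00229). Under median centring the members called fell to 6, with 5 lower and 1 higher. The count was 6 without DNFB replicate 3, 8 without H2O2 replicate 1, 7 without H2O2 replicate 2 and 21 without H2O2 replicate 3. It was 12 within the arrays at 250 and 0 within those at 500.

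With DPI alone 8 members were higher (17%) and 4 lower (8.51%) than in non-treated cells, or 25.5% either way. Over all genes 13.3% were higher and 18.4% lower (31.8% either way). The members' median was 0.28, against -0.007 over all genes, and 34 of the 47 lay above 0. Without DPI replicate 2 the members' median was 0.13. Cmpk2, a mitochondrial nucleotide kinase encoded beside Rsad2, gave 683, 967 and 318 with DPI against 197, 277 and 208 in non-treated cells. All DPI values were higher but widely spread, and the log2 change was 1.35 ± 0.494 (limma adjusted p = 0.043). Oas1a, one of the synthetases that make 2′-5′-linked oligoadenylate and thereby switch on RNase L, gave 5620, 6422 and 3447 with DPI against 2788, 3184 and 1840. Oas2, a relative, gave 1077, 979 and 689 against 626, 597 and 387. Both were higher on every DPI array, with log2 changes of 0.97 ± 0.276 for Oas1a (limma adjusted p = 0.0103) and 0.76 ± 0.266 for Oas2 (0.0342). Ube2l6, the enzyme that hands ISG15 to its ligases, gave 623, 537 and 283 with DPI against 291, 272 and 201. The values overlapped and the log2 change was 0.82 ± 0.281 (limma adjusted p = 0.0303). Daxx, Rnf213, Ifi27 and Adar rose by 0.57, 0.52, 0.46 and 0.45; the direction of Adar turned when its probe sets were averaged, to a log2 value of -0.26 (adjusted p = 0.162).

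Ifi47 was lower with DPI, at 689, 684 and 669 against 1638, 1229 and 1229 in non-treated cells, a log2 change of -0.98 ± 0.191 (limma adjusted p = 0.000563). Irf1, a transcription factor induced by interferon-gamma, gave 1026, 1161 and 918 with DPI against 1853, 1596 and 1567. The groups lay apart, with a log2 change of -0.69 ± 0.129 (limma adjusted p = 0.000394). Irgm1 and Trim25 changed by -0.48 and -0.32. Median centring left 7 members higher and 2 lower. The number of members called was 7 without non-treated replicate 2, 6 without non-treated replicate 3 and 6 without DPI replicate 1. It was 7 within the arrays at 250 and 4 within those at 500.

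With DPI + DNFB, 17 members were higher and 4 lower than in non-treated cells, where 1910 of the 12701 genes were higher and 18.7% lower (33.8% either way). The median over the members was 0.51, against 0.024 over all genes. All 5 OAS family genes were higher. Oas2 gave 2467, 2045 and 1553 with DPI + DNFB against 626, 597 and 387 in non-treated cells, and the groups lay far apart. Its log2 change was 1.89 ± 0.266 (limma adjusted p = 2.09e-05). Oas3 gave 827, 671 and 579 against 370, 258 and 106, and Oas1a gave 7841, 8595 and 5355 against 2788, 3184 and 1840. Neither overlapped, with log2 changes of 1.58 ± 0.466 for Oas3 (limma adjusted p = 0.0124) and 1.48 ± 0.276 for Oas1a (0.000343). Oasl2 and Oasl1, OAS-like proteins, changed by 1.15 and 0.84.

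Among regulators and sensors, Irf7, the factor that amplifies interferon-alpha production, gave 2157, 2555 and 1413 with DPI + DNFB against 998, 989 and 475 in non-treated cells, a log2 change of 1.33 ± 0.364 (limma adjusted p = 0.00756). Zbp1, a sensor of Z-form nucleic acid that can start necroptosis, gave 610, 895 and 467 against 265, 240 and 204. Both genes were higher on every DPI + DNFB array, with a log2 change for Zbp1 of 1.38 ± 0.363 (limma adjusted p = 0.006). Dhx58 (LGP2), a modulator of RNA sensing, gave 430, 698 and 218 against 177, 231 and 90.8. Its values overlapped, with a log2 change of 1.30 ± 0.417 (limma adjusted p = 0.021). Dimmer probe sets of Zbp1 and Dhx58 gave -0.30 and 0 for this difference.

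The other members that were higher were Rsad2 (1.13), Ifi35 (1.09), the pro-apoptotic Xaf1 (1.07), the exonuclease Isg20 (1.02), the ISG15 ligase Herc6 (0.89), Mx1 (0.84), Rnf213 (0.83), Trim30a (0.65) and the RNA-activated kinase Eif2ak2 (0.61). Dimmer probe sets gave 0.33 for Rnf213, and -0.15 and 0.22 for Eif2ak2. Ifi47 was lower, at 881, 743 and 515 with DPI + DNFB against 1638, 1229 and 1229, a log2 change of -0.94 ± 0.191 (limma adjusted p = 0.000748). Irgm1 gave 591, 802 and 579 with DPI + DNFB against 1156, 1109 and 1043. Both lay below all non-treated values, and Irgm1 changed by -0.75 ± 0.154 (limma adjusted p = 0.000872). Parp9 and Trim25 changed by -0.70 and -0.29.

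This comparison moved with the scaling and with the beta-actin ratio. Under median centring the median log2 change over all genes was -0.227 in place of 0.024, and 9 members were higher and 6 lower; against DPI that median was -0.173 in place of 0.08, against DNFB -0.173 in place of 0.101, and for the interaction -0.136 in place of 0.139. The members' median was then 0.26. With the beta-actin ratio as a covariate, 8 were called and all were higher. The members' median in that fit was 0.91, against -0.012 over all genes. With DPI + DNFB replicate 2, whose ratio was 1.5, as the only array of its group, the members' median was 0.75, against -0.014 over all genes. That array was also the highest of its group for 33 of 47 members. Neither fit can therefore separate the ratio from this difference among replicates. The part of RNA integrity in these counts was not tested further. Without non-treated replicate 3, 13 were called; within the arrays at 250, 13, and within those at 500, 9.

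Against DPI alone, DPI + DNFB gave 7 members higher (14.9%) and 2 lower (4.26%), or 19.1% either way. Over all genes 14.1% were higher and 13.7% lower (27.8% either way). In this fit, which did not use the replicate number, the members were therefore not called more often than other genes. With that number as a block more members were called, and the counts are given at the end of the report. This comparison shares no array with that of DNFB and non-treated cells. Rtp4 gave 1528, 2705 and 1053 with DPI + DNFB against 766, 984 and 422 with DPI, a log2 change of 1.24 ± 0.356 (limma adjusted p = 0.0134). Ifi35, a leucine-zipper protein, gave 7743, 8662 and 7892 against 3641, 4941 and 3294, and Oas2 gave 2467, 2045 and 1553 against 1077, 979 and 689. None of the 3 overlapped, with log2 changes of 1.05 ± 0.185 for Ifi35 (limma adjusted p = 0.000347) and 1.13 ± 0.266 for Oas2 (0.00355). Dimmer probe sets of Ifi35 differed from non-treated cells by 0.14 and -0.18 with DPI, and by 0.47 and 0.65 with DPI + DNFB. Irf9, the DNA-binding part of the type I complex, gave 807, 806 and 726 against 451, 578 and 402. Ifit1 gave 288, 469 and 222 against 110, 252 and 110, and Oasl1 gave 1587, 2147 and 1385 against 1273, 1456 and 807. Irf9 was apart and the other two overlapped, with log2 changes of 0.71 ± 0.21 for Irf9 (limma adjusted p = 0.0165), 1.02 ± 0.366 for Ifit1 (0.0437) and 0.55 ± 0.198 for Oasl1 (0.0454). Irf1 changed by 0.47.

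Trim21 was lower, at 419, 411 and 369 with DPI + DNFB against 577, 491 and 550 with DPI, and Daxx was lower at 882, 760 and 958 against 1208, 1158 and 1048. Neither overlapped, and the changes were -0.42 ± 0.15 (limma adjusted p = 0.0442) and -0.39 ± 0.131 (0.0305). The members' median was 0.28, against 0.08 over all genes; it was 0.05 without DPI + DNFB replicate 2, 0.09 without DPI replicate 3, 0.43 without DPI replicate 2 and 0.44 without DPI + DNFB replicate 3. Median centring gave 2 higher and 5 lower, with a members' median of 0.03 against -0.173 over all genes. The beta-actin covariate left 1 member called, with a members' median of 0.75 against 0.044 over all genes. The count was 5 without DPI replicate 1, 3 without DPI replicate 3, 5 without DPI + DNFB replicate 1 and 4 with DPI + DNFB replicate 2 as its group's only array. It was 3 within the arrays at 250 and 2 within those at 500.

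Whether DNFB acted differently on a member in the presence of DPI was tested as the interaction, the change of DPI + DNFB from DPI minus the change of DNFB from non-treated cells. It passed for 17 members (36.2%), 16 of them positive (34%). Over all genes 17.3% were positive and 13.8% negative (31.1% either way). The median was 0.72, against 0.139 over all genes. Usp18 changed by -1.97 with DNFB alone and gave 6614, 9667 and 5985 with DPI + DNFB against 6653, 8423 and 5270 with DPI. These values overlapped, and the interaction was 2.09 ± 0.296 (limma adjusted p = 2.45e-05). Ifit2 gave 557, 545 and 305 with DPI + DNFB against 318, 764 and 358 with DPI, with an interaction of 1.89 ± 0.499 (limma adjusted p = 0.00663). Trim30a gave 1985, 3398 and 1726 against 1410, 2236 and 1715, with an interaction of 1.38 ± 0.342 (limma adjusted p = 0.00419). Rtp4 (1.69), Ifi35 (1.60) and Oas2 (1.53) had the next largest positive values after Usp18 and Ifit2, and Adar alone was negative, at -0.48 ± 0.174 (limma adjusted p = 0.0403), a value that turned to 0.19 (adjusted p = 0.496) when its probe sets were averaged.

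The 18 members that were lower with DNFB alone had a median log2 change of -0.75 in that comparison and of 0.04 with DPI + DNFB against DPI. In the second, 2 of them were higher (Irf1 and Ifi35), 1 was lower (Trim21) and 15 did not pass. The 18 were chosen on the first comparison, so their first median is a description. Median centring left 11 interactions, 9 positive and 2 negative. There were 13 within the arrays at 250 and 5 within those at 500.

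**Figure D3:**
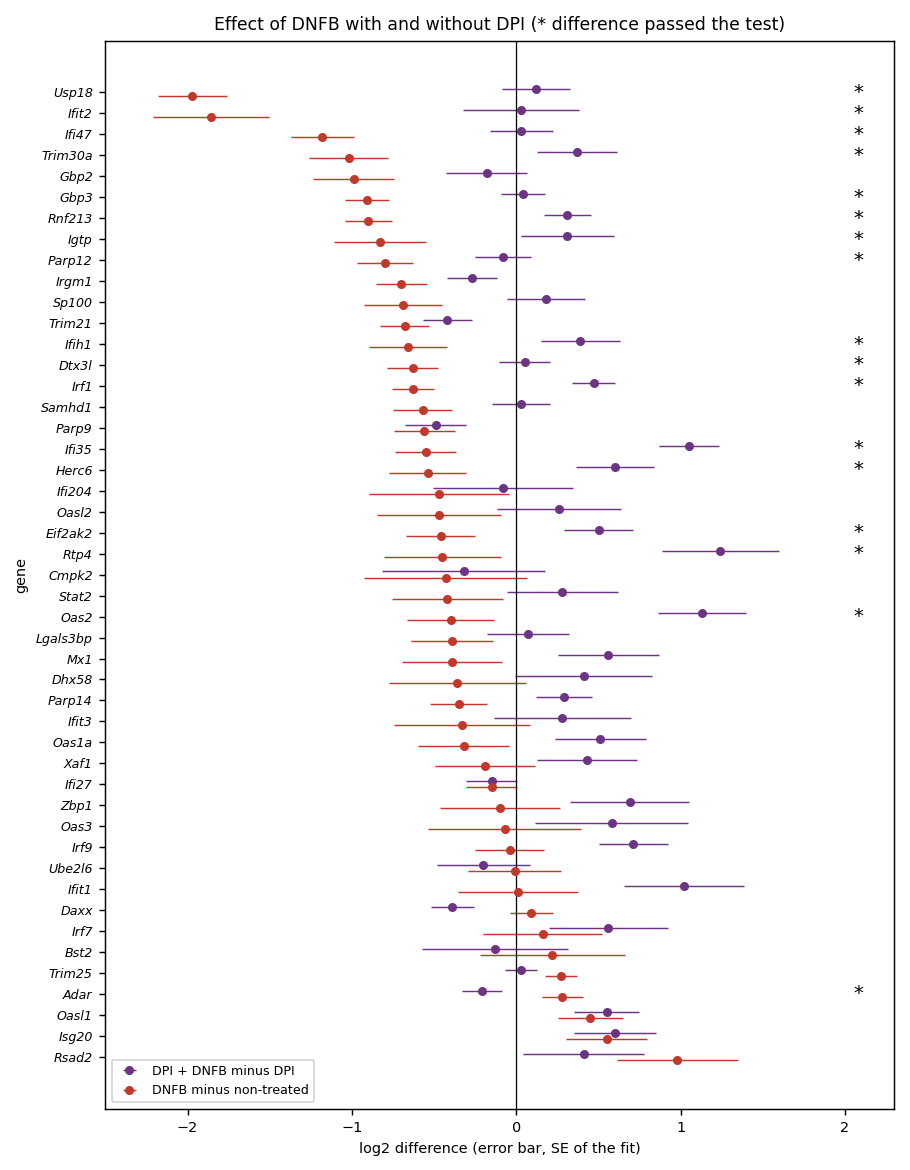
Effect of DNFB with and without DPI on the 47 tested members, 1 in each row. Points are log2 differences with the SE of the fit, for DPI + DNFB minus DPI (purple) and for DNFB minus non-treated (red), with 3 arrays a group, and a star marks a member whose interaction passed; Usp18, in the top row, lies at -1.97 in the second and near 0 in the first.

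Set against DNFB alone, DPI + DNFB gave 33 members higher and 1 lower, where 22.9% of all genes were higher and 21.3% lower (44.2% either way). The median was 0.90, against 0.101 over all genes. Oas2 gave 2467, 2045 and 1553 with DPI + DNFB against 469, 509 and 258 with DNFB, and Oas1a gave 7841, 8595 and 5355 against 2131, 2493 and 1573. Both were far apart, with log2 changes of 2.29 ± 0.266 for Oas2 (limma adjusted p = 1.02e-06) and 1.80 ± 0.276 for Oas1a (2.45e-05). Usp18, with the values above, changed by 1.76 ± 0.209 (limma adjusted p = 1.38e-06). Rnf213 gave 3162, 3649 and 3012 with DPI + DNFB against 939, 1187 and 822 with DNFB, a log2 change of 1.73 ± 0.144 (limma adjusted p = 1.52e-08). A dimmer probe set of Rnf213 differed from non-treated cells by 0.26 with DNFB and by 0.33 with DPI + DNFB. Trim30a changed by 1.67 ± 0.242 (limma adjusted p = 1.38e-05), and Dhx58, at 112, 171 and 85.1 with DNFB, by 1.66 ± 0.417 (0.00293). Trim25 was lower, at 3173, 3429 and 2988 with DPI + DNFB against 4625, 4700 and 4745 with DNFB, a log2 change of -0.55 ± 0.0977 (limma adjusted p = 0.000116). Median centring left 21 higher and 1 lower, and 32 members were called within the arrays at 250 and 13 within those at 500.

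**Figure D4:**
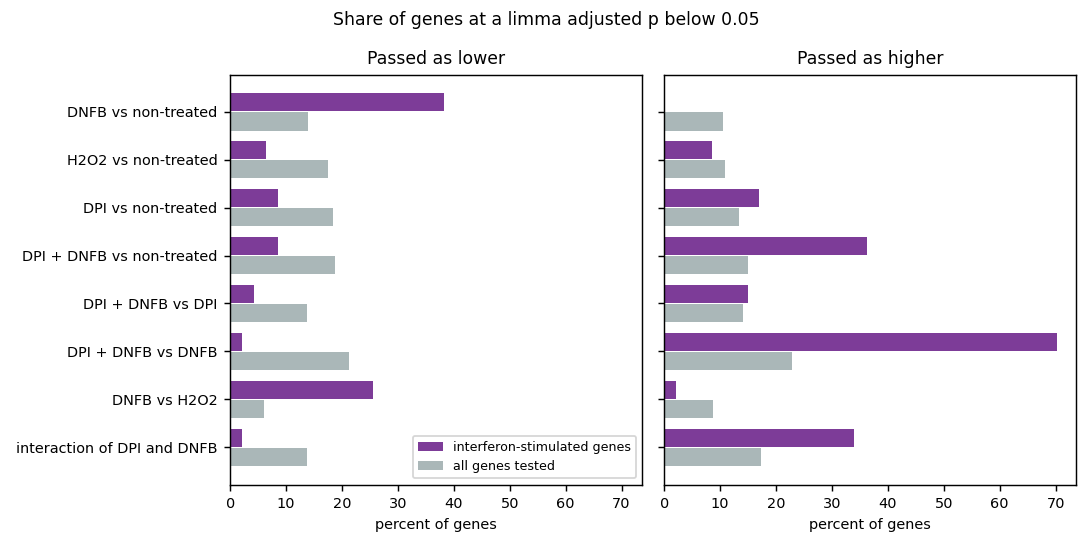
Share of genes that passed in each comparison. Bars give the percent lower (left) and higher (right) at a limma adjusted p below 0.05, for the 47 tested interferon-stimulated genes (purple) and all 12701 genes tested (grey); DPI + DNFB against DNFB has 70.2% of the members higher, and DNFB against non-treated has 38.3% lower.

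Bst2 (tetherin, which holds budding virions on the cell surface and is also a marker of plasmacytoid dendritic cells), the DNA-binding Ifi204 and Stat2 did not pass in any of the 8 comparisons. Bst2 was bright and variable, at 4668, 5564 and 2427 with DNFB and 3663, 5505 and 1955 in non-treated cells. It gave 5013, 7448 and 2293 with H2O2, 7040, 7821 and 3484 with DPI, and 5933, 8589 and 2856 with DPI + DNFB. A second probe set of Stat2 differed by 1.03 with DPI and 1.23 with DPI + DNFB from non-treated cells, where the brighter one gave -0.17 and 0.11. Mx2 lay between 16.8 and 95.1 on all 15 arrays.

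The members shared a pattern among replicate arrays. In each group, replicate 2 was the highest of the 3 for more members than any other and replicate 3 the lowest. Replicate 3 was lowest for 35 of 47 members with DNFB, 37 with H2O2, 38 with DPI, 36 with DPI + DNFB and 34 in non-treated cells, whereas over all genes it was lowest for 31.5% to 35.7%. Replicate 2 was highest for 32, 37, 37, 33 and 24 members in the same order of groups, against 30.6% to 34.5% of all genes. Replicate 2 lay at a median of 0.13 to 0.38 log2 units above its group's mean and replicate 3 at 0.18 to 0.32 below it. The fits above did not use the replicate number. With it as a block more members were called in every comparison, and those counts are given at the end of the report. The spread differed by gene, with a pooled SD over the groups of 0.08 log2 units for Trim21 and 0.80 for Cmpk2, and differences of genes with the larger spread had to be larger to pass.

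The members were also set beside their promoter matches. Of 15 tested members with an ISRE core, 7 were lower with DNFB, with a median log2 change of -0.46. Of 22 with a window and no match, 9 were lower, with a median of -0.45. Of 10 with a GAS match 5 were lower with DNFB, and of 27 without one, 11. Over all genes tested 13.9% were lower with DNFB.

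The rest of the interferon pathway was followed on lists of other genes. Of 9 interferon genes listed, 5 had a probe set of their own and the rest were not measured. Of the 5, 2 were bright enough to test, Ifnb1 and Ifna1, and neither passed in any comparison. Ifnb1 averaged a signal of 51.9 with DNFB, 110 with H2O2, 87.4 with DPI, 101 with DPI + DNFB and 65.6 in non-treated cells. Of 17 tested genes for receptors and signalling, 3 were higher and 1 lower with DNFB, 4 and 3 with H2O2, and 2 and 7 with DPI, each against non-treated cells. Over all genes 24.4%, 28.3% and 31.8% were called in these comparisons, and the list medians were 0.05, -0.10 and -0.22; with DNFB the share of the list called lay near that of all genes. Socs3, an inhibitor of JAK kinases, changed by 2.39, 1.99 and 0.84 in those comparisons, and the phosphatase gene Ptpn6 by -1.64, -1.24 and -0.46. The transcription factor Irf5 changed by 1.05, 0.71 and -1.43. Ifngr2, a chain of the interferon-gamma receptor, fell by 1.87 on the log2 scale with DPI.

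Of 14 tested genes of nucleic acid sensing, 1 was higher and 3 lower with DNFB, 1 and 5 with H2O2, and 2 and 4 with DPI. The list medians were -0.02, -0.05 and -0.23, and with DNFB the share called again lay near the 24.4% of all genes. The genes named next are among those with the largest changes on the list. The double-stranded RNA receptor Tlr3 averaged 82.5 with DNFB, 111 with H2O2 and 441 in non-treated cells, changes of -2.22 and -1.85. Sting1, the adaptor of DNA sensing, changed by -1.40 and -1.23, and Ticam1, the adaptor of Tlr3, by 1.36 and 1.16. The DPI set included the kinase Ikbke at -1.47 and Tlr4 at -1.22. Of 12 tested chemokine and antigen presentation genes that interferon induces, 1 was higher and 5 lower with DNFB, with a list median of -0.19. The immunoproteasome subunits Psmb8, Psmb9 and Psmb10 changed by -1.06, -0.98 and -1.08 with DNFB, and Ciita, the activator of MHC class II genes, by -1.02. Cxcl10, a chemokine for activated T cells, went the other way and changed by 2.5 with DNFB, 2.39 with H2O2 and 3.02 with DPI.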

How the data were processed

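Total RNA of 15 samples of a mouse dendritic cell line was hybridised to expression arrays, 3 in each of 5 groups taken from the sample titles. The authors deposited linear intensity values per probe set, made with MAS5 in Affymetrix Expression Console per the submitters' processing notes, with no versions given. Precision is limited by how many arrays there were.

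Of 45101 probe sets, 64 were controls; 34945 had 1 gene symbol, 932 several and 9160 none, and 34741 of the symbols were matched in a RefSeq gene table. Each array was rescaled to a 2% trimmed mean of 500, because the deposited values had trimmed means of 250 or 500, and transformed to log2(signal + 15), so changes are on that scale and understate those of dim genes. Probe sets at or above the 40th percentile of mean log2 signal (6.22; 27022 probe sets) were kept, and each gene was represented by its brightest one on average (12701 genes); 21 members had several. Group means are geometric where no SD is given. All 15 arrays entered 1 model in limma 3.58.1 under R 4.3.3 (eBayes with trend; 10 residual degrees of freedom), with Benjamini-Hochberg adjustment over all genes within a comparison and a threshold of 0.05. The fit was tested on simulated data with independent noise on each array. Those data held no pattern shared by replicate number, so that test does not cover the replicate order of the members.

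The 50 members and the other lists were chosen with earlier results of these data known. Values on every array are given for the 6 members with the largest changes among those that passed and the 2 largest in the opposite direction. Alternatives were other pseudocounts, filters, normalizations and probe set rules, the values as deposited, the scaling target or replicate number as a block, the beta-actin ratio as a covariate, and leaving out each array; the fit with 1 DPI + DNFB array was chosen after seeing the data. Promoter sequences are those of RefSeq.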

Additional observations from a re-analysis of the deposited data

Results flagged for a closer look

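The effect of DNFB differed between cells with and without DPI, by the interaction term (limma adjusted p below 0.05), for 17 of the 47 tested members. On the log2 scale, as the effect with DPI minus that without it, the values were 2.09 for Usp18, 1.89 for Ifit2, 1.69 for Rtp4, 1.60 for Ifi35, 1.53 for Oas2, 1.38 for Trim30a, 1.22 for Ifi47, 1.21 for Rnf213, 1.14 for Igtp, 1.14 for Herc6, 1.10 for Irf1, 1.05 for Ifih1, 0.96 for Eif2ak2, 0.95 for Gbp3, 0.72 for Parp12, 0.67 for Dtx3l and -0.48 for Adar. These 17 were 36.2% of the members tested, against a background share of 31.1% of all genes.

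The probe set shared by Isg15, a ubiquitin-like modifier, and Gm9706 was outside the tests. Its signal was 866, 1311 and 615.7 with DNFB, 1203, 1835 and 532 with H2O2, 1321, 1871 and 738.6 with DPI, 2565, 3651 and 1416 with DPI + DNFB, and 276, 687 and 368 in non-treated cells. Every value with DPI and with DPI + DNFB was above the highest non-treated value, from lowest values of 738.6 and 1416, and which gene gave the signal cannot be told apart.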

How the results depend on the processing

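The 131 member changes that passed kept their direction under every alternative run except Adar under the mean over probe sets, at -0.26 for DPI against non-treated cells and 0.19 for the interaction. All 131 still passed with the replicate block, 131 with a pseudocount of 50, 123 with quantile normalization, 82 with median centring, 100 with the mean over probe sets and 20 with the values as deposited.

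The numbers of members called below follow the order DNFB, H2O2, DPI and DPI + DNFB against non-treated cells, then DPI + DNFB against DPI, DPI + DNFB against DNFB, DNFB against H2O2, and the interaction. The values as deposited gave 2, 1, 0, 1, 0, 16, 0 and 0, and 210, 176, 214, 180, 7, 829, 26 and 137 genes over the whole array against 3105, 3591, 4035, 4291, 3530, 5617, 1873 and 3945. The arrays with a trimmed mean of 500 gave 4, 3, 4, 9, 2, 13, 0 and 5, and those at 250 gave 18, 7, 7, 13, 3, 32, 12 and 13. The first set held 1 DNFB array and the second 1 array of each group but DNFB, with 4 and 1 residual degrees of freedom, so a lone array was assumed to vary like the other groups. Median centring gave 12, 6, 9, 15, 7, 22, 6 and 11. Quantile normalization gave 11 for H2O2. The beta-actin covariate gave 8 for DPI + DNFB against non-treated cells and 1 against DPI, and DPI + DNFB replicate 2 alone gave 4 against DPI. Leaving out 1 array gave 12 to 20, 4 to 11, 6 to 14, 13 to 21, 3 to 11, 27 to 35, 6 to 21 and 13 to 21. The cause of these shifts was not tested.

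The groups share replicate numbers. Samples with the same number correlated at -0.00273 to 0.144 in their deviations from the group means over all genes, above 0.1 in 9 of 30 pairs, so the numbers were not taken as pairs, although the replicate arrays of the members alone stood in a like order in each group. With the replicate block 28, 19, 23, 30, 16, 39, 31 and 28 members were called. Without it the counts were 18, 7, 12, 21, 9, 34, 13 and 17. Over settings other than leaving out an array, 176 to 3944 genes of the whole array were called with H2O2 against non-treated cells. The counts over all genes with the block are not given here, so a rise particular to the members is not shown.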
